A study of Homo sapiens with 40 samples.

Results

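TMEM genes, whose protein products are named only for being transmembrane proteins, made up 137 of the 9460 genes in a catalogue of long-read transcript models made from a human stem cell line and the neural progenitors grown from it. Members were all identifiers that start with TMEM and a digit, without those that hold a hyphen or a low line, and they had 350 of the 19972 models. Neural progenitor cells (NPC) had been derived by dual-SMAD inhibition, which blocks the BMP and TGF-beta branches of SMAD signalling, from H9, an established line of embryonic stem cells (ESC) that was also sampled as the control. Polyadenylated RNA was taken from cytosol, monosomes, light polyribosomes (2 to 4 ribosomes) and heavy polyribosomes (5 or more). The 40 libraries were 16 long-read and 24 short-read libraries, 2 and 3 in each of the 8 groups of that read type. The catalogue holds 1 set of models with no value per library. NPC and ESC, or the fractions, are therefore not compared. Depth is unknown, so the lack of a model says nothing firm about expression.

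The TMEM symbol is a placeholder given before a function was known, so the family is not 1 pathway. Its members sit in the membranes of the primary cilium, mitochondrion, endoplasmic reticulum, nucleus, Golgi and lysosome. The best understood include proteins of the ciliary transition zone, a gate at the base of the cilium that is needed for Hedgehog signalling in the developing brain and is mutated in Joubert and Meckel syndromes. Others assemble respiratory complexes, insert or glycosylate membrane proteins, or carry ions and lipids.

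All 137 identifiers matched a RefSeq entry, 134 by symbol and 3 by synonym. The renamed 3 are TMEM104, now SLC38A12, TMEM199, now the V-ATPase assembly gene VMA12, and TMEM251, now LYSET, which is needed to send enzymes to lysosomes. RefSeq lists 135 members as protein-coding and 2, TMEM191A and TMEM198B, as transcribed pseudogenes. Of the 232 protein-coding genes that RefSeq names TMEM, 132 had a model (56.9%, 95% Wilson interval 50.5 to 63.1%), against 42.4% of all 20056 protein-coding genes. The rule leaves out 6 identifiers with 22 models, of which the divergent transcript gene TMEM161B-DT has 14. TMEM161B itself had no model. Intervals here cover counting error over genes, exons or models of 1 catalogue. Genes are not replicates and the members were chosen by name, so no difference from other genes was tested.

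The starts of the models lay close to annotated starts, and the promoters below show them for genes of the ciliary transition zone. Of 137 members 108 had at least 1 promoter entry in RefSeq's table (GRCh38.p14), and the nearest model start lay a median of 5 nt from the annotated start, against 7 nt over 7389 genes. For 99 of the 108 (91.7%) it lay within 50 nt, against 84.3% of all genes. No build is named for the deposited coordinates, and this closeness was the only check of it. The following RefSeq promoters of 300 bases (250 before and 50 after the start) are given 5' to 3', with matches to GTTGCC, on either strand, in capitals; these letters are the core of the X-box, the element bound by RFX factors at many ciliary genes.

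TMEM17, chr2:62506146-62506445, minus strand: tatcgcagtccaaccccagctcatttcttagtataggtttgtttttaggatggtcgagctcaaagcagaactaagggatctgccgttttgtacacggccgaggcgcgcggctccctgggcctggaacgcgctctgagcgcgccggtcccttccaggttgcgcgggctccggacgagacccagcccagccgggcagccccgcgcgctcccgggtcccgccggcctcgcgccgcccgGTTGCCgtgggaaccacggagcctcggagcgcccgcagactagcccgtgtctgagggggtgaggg
TMEM107, chr17:8176331-8176630, minus strand: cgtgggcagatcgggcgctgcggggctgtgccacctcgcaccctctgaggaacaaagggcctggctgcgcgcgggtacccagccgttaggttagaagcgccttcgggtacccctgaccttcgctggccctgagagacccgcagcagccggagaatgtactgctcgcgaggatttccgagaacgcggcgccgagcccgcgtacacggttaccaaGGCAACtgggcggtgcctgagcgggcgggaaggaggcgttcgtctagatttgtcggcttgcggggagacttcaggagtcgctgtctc
TMEM218, chr11:125111577-125111876, minus strand: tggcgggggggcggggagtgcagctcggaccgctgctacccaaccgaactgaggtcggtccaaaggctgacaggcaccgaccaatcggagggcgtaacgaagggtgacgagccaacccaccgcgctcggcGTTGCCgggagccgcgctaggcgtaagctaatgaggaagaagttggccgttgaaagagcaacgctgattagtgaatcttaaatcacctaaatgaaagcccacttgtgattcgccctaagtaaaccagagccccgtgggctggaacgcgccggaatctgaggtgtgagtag
TMEM231, chr16:75556237-75556536, minus strand: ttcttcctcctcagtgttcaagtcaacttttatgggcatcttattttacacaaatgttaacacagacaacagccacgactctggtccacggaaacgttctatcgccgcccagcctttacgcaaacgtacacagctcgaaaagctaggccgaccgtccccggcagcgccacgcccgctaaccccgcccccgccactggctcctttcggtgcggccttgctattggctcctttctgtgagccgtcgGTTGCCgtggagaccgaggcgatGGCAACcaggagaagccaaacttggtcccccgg
TMEM138, chr11:61362124-61362423, plus strand: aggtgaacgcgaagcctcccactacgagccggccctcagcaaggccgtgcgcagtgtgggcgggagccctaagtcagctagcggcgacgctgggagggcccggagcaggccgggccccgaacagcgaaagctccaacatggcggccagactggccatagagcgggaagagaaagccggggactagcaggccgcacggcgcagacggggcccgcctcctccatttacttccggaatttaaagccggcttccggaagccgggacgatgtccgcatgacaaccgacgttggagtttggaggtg

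The core GTTGCC was present in the entries of 4 of the 8 ciliary TMEM genes that have one, or 5 of 11 entries (45.5%), in 22 of 142 TMEM entries (15.5%), in 12.6% of 10710 entries of all genes with a model and in 12.2% of all 35116 entries. The first base of the match lay at -15 in TMEM17, -37 in TMEM107, -120 in TMEM218, and -6 and 17 in the TMEM231 entry printed, counted with 0 at the annotated start. The 2 entries of TMEM231 overlap in most of their bases and hold the same matches. TMEM80, TMEM138, TMEM216 and TMEM237 had no match in these windows. TMEM138 is printed for contrast, and 7 of its 8 models began at the first base of its annotated transcript, against 1 at -351. Other motifs were also searched on both strands. The GC box GGGCGG was present in 72.5% of TMEM entries and 67.5% of entries of genes with a model, the CCAAT box (CCAAT) in 35.2 and 35.8%, the ETS core CGGAAG in 29.6 and 32.3%, GCATGCGC of the NRF1 site in 10.6 and 5.27%, and TATAAA in 1.41 and 5.66%. A match describes letters in the window and does not show binding.

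TMEM genes had a mean of 2.55 ± 2.27 models (SD over genes, n = 137), against 2.11 ± 1.70 over all genes (n = 9460), and the median was 2 in both. At least 2 models were found for 79 of 137 members (57.7%, 95% Wilson interval 49.3 to 65.6%), against a background of 50% of all genes (4731 of 9460). TMEM218 had 17 models, which only 1 gene of the catalogue exceeded. TMEM116 followed with 12, TMEM161A with 10, TMEM138 with 8, and TMEM134, TMEM254 and TMEM53 with 7 each. TMEM198B, TMEM205, TMEM259, TMEM45A and TMEM52 had 6 each. The other members had at most 5, and 58 had 1.

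**Figure D1:**
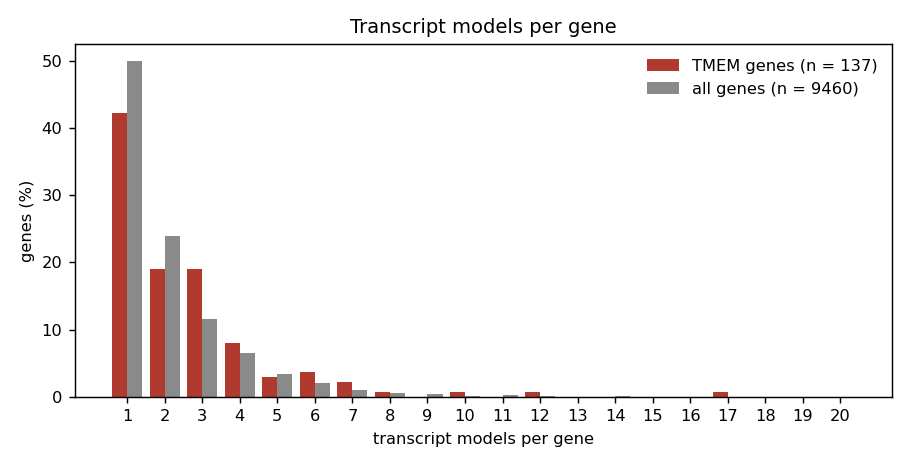
Share of genes in percent (y axis) by number of transcript models (x axis) for TMEM genes (red, n = 137) and all genes of the catalogue (grey, n = 9460). A smaller share of TMEM genes than of all genes has 1 model, and single TMEM genes stand at 10, 12 and 17 models.

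TMEM models were short. The median length was 1398 nt over 350 models, against 1537 nt over all models, with a median of 5 exons against 6. The longest coding region per gene had a median of 241 codons over 133 TMEM genes, against 335 over 8579 genes, and the median gene span was 14193 nt against 18550 nt. Codons were counted to the end of each deposited coding region, its final codon included. The longest coding region was that of TMEM132A, with 1020 codons, and the longest model, of TMEM30A, a subunit of lipid flippases, had 4383 nt. TMEM63B, an ion channel gene, had the most exons with 23. The largest gene was TMEM108, which encodes a neuronal vesicle protein, with a span of 357917 nt and an intron of 183249 nt, and the smallest was TMEM88 with a span of 1071 nt. No model in the whole catalogue exceeded 5877 nt.

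All 9 TMEM genes of the ciliary transition zone list had a model, 40 models in all, and 6 had at least 2. Beside this and the later lists stand 56.9% of RefSeq's protein-coding TMEM genes and 42.4% of all its protein-coding genes with a model. TMEM218 had 17, TMEM138 8, TMEM80 and TMEM237 4 each, TMEM107 and TMEM216 2 each, and TMEM17, TMEM67 and TMEM231 1 each. Of 11 other transition zone genes, 8 had a model: MKS1 and TCTN1 had 8 each, B9D1 and TCTN3 7 each, CC2D2A 4, B9D2 and CEP290 2 each and RPGRIP1L 1, while TCTN2, AHI1 and NPHP4 had none. The only model of TMEM67, which encodes the receptor-like protein meckelin, covered 3 exons and 129 codons.

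TMEM218 lies on the minus strand of chromosome 11, from 125097013 to 125111749. Its 12 coding models all had the same coding region of 116 codons, and they differed upstream of it. The 5' untranslated region, the part of an mRNA before the start codon, ranged from 189 to 412 nt in these models, and the 3' untranslated region from 569 to 593 nt. An alternative 5' splice site 97 nt away and an alternative 3' splice site 34 nt away lay ahead of the start codon, and the end of the initial exon had 3 positions, 2 and 46 nt apart. An exon of 59 nt was included in 2 models and another of 103 nt in 1. All 17 models began within the promoter window printed above, between -123 and 44 of the annotated start. Of the 5 models without a coding region, 4 did not contain the base at which the coding region of the others starts: the exon that holds it, of 186 or 220 nt in the other 13 models, was skipped.

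**Figure D2:**
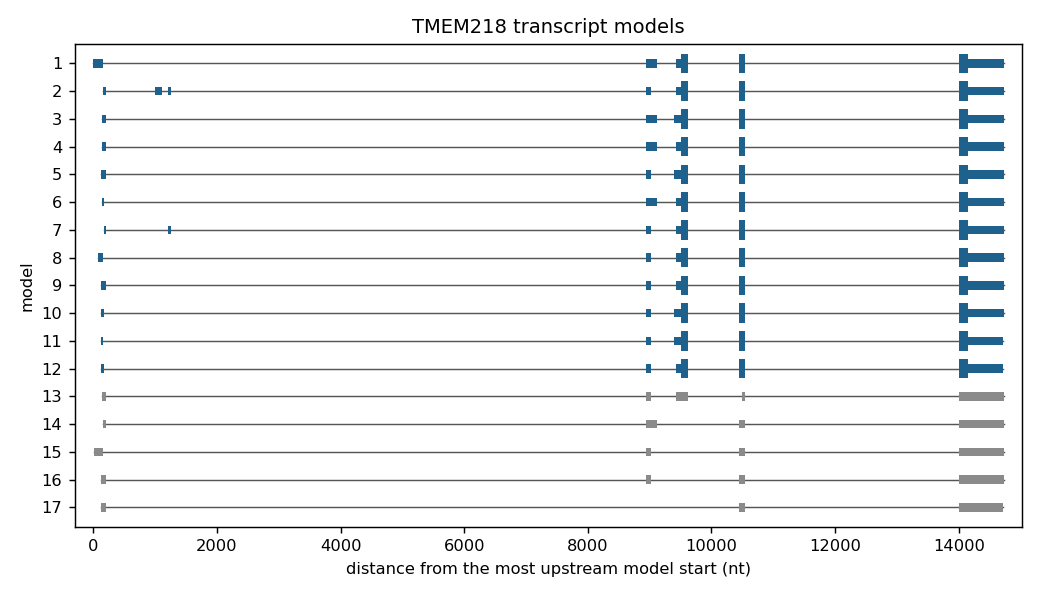
The 17 TMEM218 models (y axis) to scale against the distance in nt from the most upstream start (x axis); tall boxes are coding, low boxes untranslated, lines introns, and grey models have no coding region. The tall boxes are alike in models 1 to 12, while the exons to their left differ.

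The other ciliary genes varied in other ways. TMEM138 (chromosome 11, 61362023 to 61376865, plus strand) had 7 coding models with 6 coding regions of 163, 145, 131, 128, 107 and 105 codons. Its models ended in 3 last exons that did not overlap, and the model that ran furthest downstream reached to within 15768 nt of TMEM216, the next gene on the same strand, with no other gene of the catalogue between them. Joubert syndrome genes TMEM138 and TMEM216 are known as neighbours. TMEM216 had a coding model of 142 codons and a model without a coding region, which differed by an alternative 5' splice site. In TMEM80 a coding cassette exon of 93 nt separated 205 from 174 codons. The 4 models of TMEM237, of 12 to 14 exons, shared a coding region of 204 codons behind 638 to 769 nt of 5' untranslated sequence.

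Mitochondrial TMEM genes were present for 9 of 10 list members, with 21 models. TMEM126B, a complex I assembly factor gene, encoded 231, 201 or 185 codons in its 4 models. Skipping of an exon of 122 nt, from 85631687 to 85631808 on chromosome 11, went with the shortest. Its paralogue TMEM126A, which begins 11444 nt beyond the end of TMEM126B on the same strand, had 3 models of 196, 126 and 105 codons. An exon of 93 nt that holds the start codon of the longest was skipped in the model with 126 codons, and a splice site 22 nt away was used in the model with 105. TMEM177, which acts on a cytochrome c oxidase subunit, had 3 models with 1 coding region of 312 codons and 5' untranslated regions of 428, 98 and 78 nt. TMEM11, which shapes the organelle's cristae, had 3 coding regions of 249, 193 and 173 codons, the longest with only 2 nt of its model ahead of it. TMEM14C, a gene of heme synthesis, had 3 models, TMEM70 2, and TMEM186, TMEM223 and TMEM242 1 each. TMEM65 had none. The 6 other assembly genes of the list all had a model, with a median of 4.

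Of the endoplasmic reticulum list 13 of 14 TMEM members had a model, with 33 models. TMEM259, or membralin, a gene of protein degradation from this compartment, encoded a different region in each of 6 models, of 627, 621, 610, 604, 452 and 355 codons. A pair of alternative 3' splice sites 18 nt apart and another pair 51 nt apart, both shifts divisible by 3, set the lengths of the longest 4. A retained intron of 80 nt went with 452 codons and 1 of 274 nt with 355. TMEM208, a gene of an alternative route into the membrane, had 5 models. TMEM33 had 4, TMEM41A 3, and TMEM41B, a lipid scramblase gene needed for autophagy, 2. TMEM147, which belongs to the translocon for multipass proteins, had coding regions of 225 and 176 codons, the shorter with a retained intron of 71 nt. TMEM129, a ubiquitin ligase gene, had 363 codons with an exon of 160 nt and 233 without it. TMEM258, a subunit of the enzyme that attaches sugar chains to proteins, had 3 models and no coding region. The 9 other genes of this list all had a model, with a median of 1.

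Of 8 nuclear envelope members, 7 had a model, and TMEM53 led with 7. TMEM53 is known to restrain BMP signalling by keeping SMAD proteins out of the nucleus in bone-forming cells. Its 7 models (chromosome 1, 44635244 to 44674488, minus strand) had 7 coding regions of 278, 248, 247, 205, 161, 118 and 112 codons. An exon of 122 nt, from 44660174 to 44660295, was included in 4 models and skipped in 3, with up to 278 and 205 codons. In models 1 to 3 the next exon began at 3 sites, 3 and 90 nt apart, which kept the frame, and 2 models ended in another last exon. TMEM120A had 4 models and TMEM170A 4, and the other 4 genes had 1 each. Of the 6 other envelope genes of the list, 4 had a model, while SUN1 and SUN2 had none.

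In the Golgi, endosome and lysosome list 17 of 20 members had a model, with 36 models. TMEM106C had 5 models, whereas TMEM106B, a lysosomal gene linked to frontotemporal dementia, had 1. TMEM9 had 4 models with 187 or 184 codons, set by splice sites 9 nt apart. TMEM59, an autophagy gene, had 4 with 325, 324, 191 and 190 codons. Splice sites 3 nt apart set the difference of 1 codon, and a splice site 356 nt away in the 5' part went with the start of the shorter regions. TMEM230 had 3 models with 1 coding region of 120 codons, and TMEM165, a Golgi ion transporter gene, had 325 and 130 codons in its 2 models. The list of neural or restricted genes had the lowest presence among these lists, 6 of 14, which is near the 42.4% of all RefSeq protein-coding genes. TMEM98 had 5 models there, TMEM108 4, TMEM178A 3, TMEM59L 2 and TMEM35A and TMEM132A 1. TMEM130, TMEM132B, TMEM132D, TMEM132E, TMEM151A, TMEM151B, TMEM158 and TMEM163 had none.

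**Figure D3:**
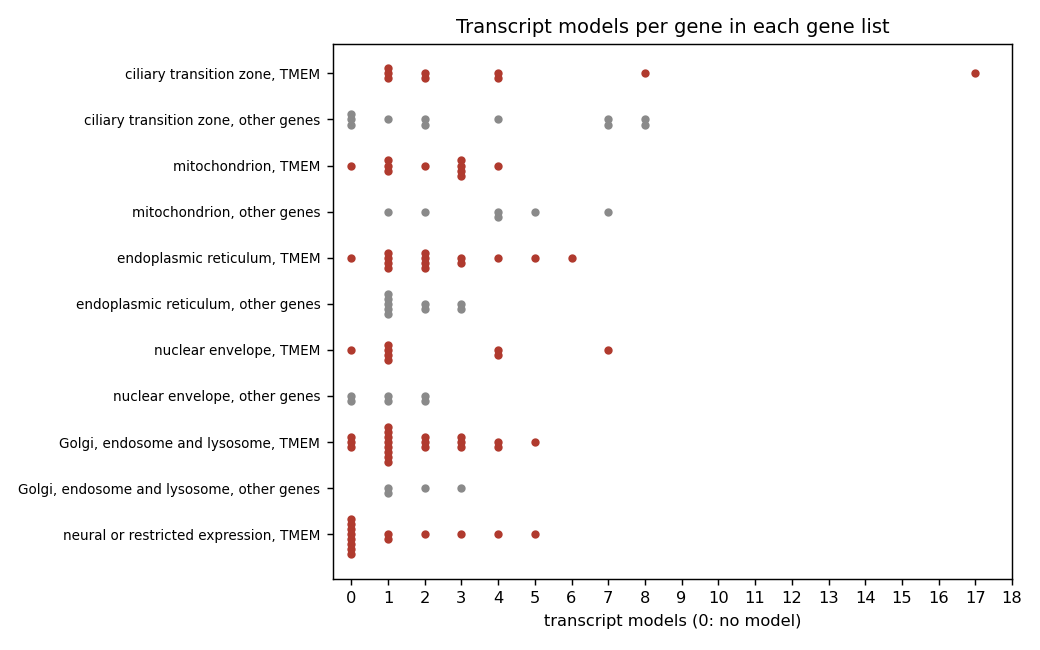
Number of transcript models (x axis) of each gene in 6 lists, TMEM members in red above the other genes of the same list in grey; points at 0 have no model and points of equal number are spread vertically. TMEM218 stands at 17, and 8 of 14 neural or restricted members stand at 0. Of all RefSeq protein-coding genes, 42.4% had a model.

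Several members are paralogues that share a number, and their counts of models often differed. There were 17 such families with 35 members in the catalogue. The transcribed pseudogene TMEM198B had 6 models and TMEM198 1. TMEM120A had 4 and TMEM120B 1, TMEM39B 3 and TMEM39A 1, and TMEM50B 3 and TMEM50A 1. The TMEM14 genes had 4 (TMEM14B), 3 (TMEM14C) and 1 (TMEM14A), with longest coding regions of 115, 113 and 100 codons. TMEM35A and TMEM35B, TMEM184B and TMEM184C, and TMEM200A and TMEM200B had 1 each. Models of near-identical copies such as TMEM191A and TMEM191C are uncertain, since no source used here says how shared reads were placed.

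The splicing differences between TMEM models covered every class. The classes overlap, since a single stretch can count in several. In TMEM80 a cassette exon, an alternative 3' splice site and a retained intron were called at the same place. Among the 79 members with at least 2 models, 43 (54.4%, 95% Wilson interval 43.5 to 65.0%) had a cassette exon, an exon present in some models and skipped in others, against 49.3% of all such genes. Alternative 5' splice sites were found in 27 (34.2%, against 25.2%), alternative 3' splice sites in 25 (31.6%, against 23.3%) and retained introns in 15 of the 79 (95% Wilson interval 11.9 to 29.0%, against 17.3%). Alternative first exons were found in 10 (12.7%, against 18.0%) and alternative last exons in 14 (17.7%, against 26.9%). Each of these all-gene shares lay inside the Wilson interval of the TMEM share.

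The 80 TMEM cassette exons had lengths of 30 to 1410 nt, with a median of 105 nt, against 110 nt over all genes. Of the 80, 36 (45.0%, 34.6 to 55.9%) lay wholly inside a coding region, against a background of 56.5%. An exon that reached past the first or last coding base did not count. The TMEM218 exons of 186 and 220 nt, which hold the base where the coding region starts, are therefore not among the 36. TMEM218 alone gave 6 of the exons not counted as inside, and without TMEM218 the share was 36 of 74 (48.6%, 37.6 to 59.8%). Of the 36 coding exons, 16 were divisible by 3 (44.4%, 29.5 to 60.4%), against 45.3%. Codons given below for an exon are the most among models that have it and among models that join the same flanking splice sites without it. Among the divisible ones, the longest held most of a coding region: TMEM108 had 576 codons with its exon of 1410 nt (chromosome 3, 133379752 to 133381161) and 106 without it, in 2 models each. The shortest, of 30 nt in TMEM220, separated 161 from 151 codons. TMEM161A kept its frame over exons of 81 nt (480 and 453 codons), TMEM178A over 114 and 138 nt (298, 252 and 214 codons), TMEM143 over 105 and 195 nt (445, 410 and 345 codons) and TMEM25 over 132 nt. TMEM41A (162 nt), TMEM52 (42 nt) and TMEM134 (45 nt) had divisible exons too. Not divisible were exons of TMEM39B (155 nt, 493 codons with it and 214 without, or 294 in the other model that lacked it), TMEM179B (79 nt, 220 and 145), TMEM9B (92 nt, 199 and 125), TMEM150A (68 nt, 272 and 219), TMEM50B (58 nt, 159 and 127, or 216 in the other model that lacked it) and TMEM161A (104 nt, 480 and 355). A model that held the exon had the shorter length too in TMEM9B (125 codons) and, for the exon of 104 nt, in TMEM161A (355 codons). For some coding exons no model without the exon had a coding region. These included exons not divisible by 3 in TMEM14C (88 nt), TMEM234 (152 nt), TMEM14B (91 nt), TMEM41A (139 nt) and TMEM138 (172 nt). They also included divisible exons of TMEM14B (102 nt) and TMEM116 (84 nt). TMEM141 had 170 codons with a coding exon of 152 nt and 109 with a form of 67 nt. Its model that skipped both had no coding region.

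TMEM116, on the minus strand of chromosome 12 from 111931296 to 112013165, had 4 variable exons inside its coding region. The exon of 139 nt was included in 8 of 12 models, with up to 338 codons, against up to 164 codons in the 4 models without it. The neighbouring exon of 84 nt was included in 11 models. The only model that lacked it also lacked the exon of 139 nt and had no coding region. The exon of 105 nt was included in 10 models and skipped in 2, and that of 64 nt was included in 5 and skipped in 7. The 11 coding models held 6 coding regions of 338, 303, 246, 223, 164 and 152 codons, and 5 of them shared the region of 246 codons behind 5' untranslated regions of 400 to 615 nt.

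Most TMEM genes with several coding models encoded more than 1 coding region. A single coding region was shared by all coding models in 12 of 69 such members (17.4%, 95% Wilson interval 10.2 to 28.0%), against 15.6% of all such genes. Among them were TMEM218, TMEM205 with 6 models, TMEM237 with 4, and TMEM177, TMEM230 and TMEM243 with 3 each. TMEM205 combined 3 alternative 5' splice sites with 2 alternative 3' splice sites ahead of its coding region of 190 codons, which gave 5' untranslated regions of 383, 273, 261, 160, 154 and 51 nt. All 6 combinations were present. In TMEM243 a retained intron of 642 or 498 nt raised the 5' untranslated region to 1036 nt, against 538 and 414 nt in the models without it. Of 57 members with models that share a start codon, 19 (33.3%) differed by at least 100 nt ahead of it, against 28.0% of all such genes.

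Each further coding model was set against the model of its gene with the longest coding region. Of 178 such TMEM models, 42 (23.6%) had the same coding region, against a background of 18.5%. Another 31 (17.4%, against 19.8%) kept start and stop and differed between them, 40 (22.5%, against 25.3%) kept the start, 53 (29.8%, against 30.0%) kept the stop, and 12 (6.74%, against 6.39%) kept neither. Of the 69 members, 33 (47.8%) had at least 2 start positions, against 44.8% of all such genes, and 30 (43.5%) had at least 2 stop positions, against 41.6%.

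**Figure D4:**
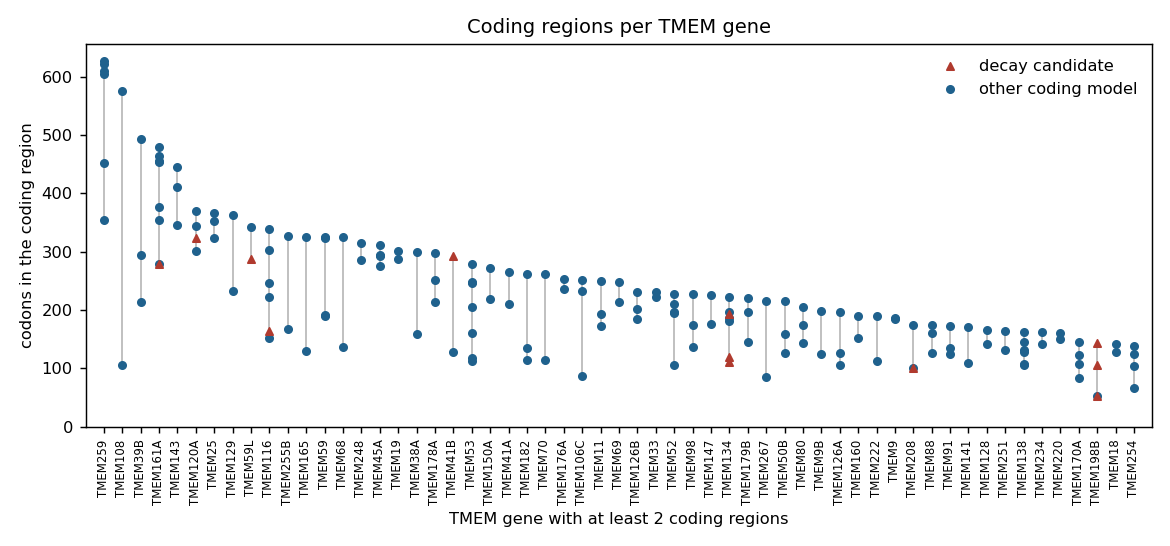
Codons per coding region (y axis, from 0) for each TMEM gene with at least 2 coding regions (x axis, by longest region), 1 point per distinct length; red triangles are decay candidates and grey lines join the extremes. TMEM108 has the widest range, from 106 to 576 codons.

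The 5 genes with the widest range of coding regions were TMEM108 (106 to 576 codons), TMEM39B (214 to 493), TMEM259 (355 to 627), TMEM161A (278 to 480) and TMEM165 (130 to 325). TMEM68, an enzyme gene of lipid synthesis on chromosome 8, had 2 models of 325 codons and 2 of 136 that ended in another last exon. The 10 TMEM161A models (chromosome 19, 19119619 to 19138483, minus strand) had 8 coding regions of 7 lengths: 480, 463, 455, 453, 377, 355 and 278 codons. TMEM45A had lengths of 311, 295, 292 and 276 codons in 5 coding models, TMEM52 227, 210, 196, 195 and 106 codons in 6, and TMEM254 138, 124, 104 and 66 codons in 4 of its 7 models. The TMEM254 regions of 138 and 104 codons had only 1 nt of their models ahead of them.

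Candidates for nonsense-mediated decay, the pathway that degrades mRNAs whose coding region ends well ahead of the last exon junction, were defined by a stop more than 50 nt upstream of that junction. They numbered 14 of 311 coding models (4.50%), against 3.14% of all coding models, in 8 of 133 genes (6.02%, 95% Wilson interval 3.08 to 11.4%), against 5.01% of all genes. The pseudogene TMEM198B had 4 candidates, TMEM134 3, TMEM208 2, and TMEM116, TMEM120A, TMEM161A, TMEM41B and TMEM59L 1 each. The rule describes models and does not measure decay.

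TMEM134, on the minus strand of chromosome 11 from 67464358 to 67469254, had 7 models and 7 coding regions. In 2 candidates the coding region ended after 120 and 111 codons, 156 nt before the last junction. Both used a 5' splice site 11 nt away from that of the other models. The third candidate, with 193 codons and a stop 93 nt before the last junction, used a 3' splice site 167 nt upstream of the site in 5 other models. The remaining models had 222, 196, 187 and 181 codons. Skipping of the exon of 45 nt gave 181, a 3' splice site shifted by 27 nt gave 187, and 1 shifted by 35 nt in the last exon gave 222.

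**Figure D5:**
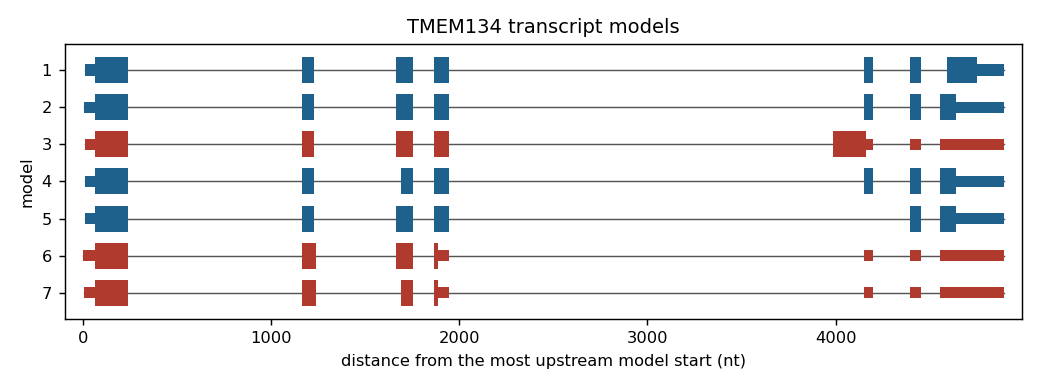
The 7 TMEM134 models (y axis) to scale against the distance in nt from the most upstream start (x axis); tall boxes are coding, low boxes untranslated and lines introns, with decay candidates in red. In the red models 3, 6 and 7 the tall boxes end 1 or more junctions before the last exon.

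Retained introns were present in 5 of the 11 other candidates, 1 each in TMEM161A, TMEM59L, TMEM208, TMEM120A and TMEM198B. In TMEM161A, retention of an intron of 103 nt, spliced in 9 models, gave 278 codons and a stop 455 nt before the last junction, against 480 codons in the longest model. TMEM59L, a neuronal paralogue of TMEM59, had 343 codons, and 287 with a retained intron of 102 nt and a stop 141 nt before the last junction. In TMEM208 the candidates had 101 codons, against 174 in the longest model, with stops 246 nt before the last junction in the model with a retained intron of 165 nt and 107 nt in the other. The stops of TMEM120A (323 codons) and TMEM41B (292 codons) lay 52 and 53 nt before the last junction, just past the limit, and the TMEM41B candidate held the longest coding region of its gene. A second TMEM120A model with the same retained intron of 103 nt and 301 codons lay just inside it, at 44 nt. The TMEM116 candidate, with 164 codons, lacked the exon of 139 nt.

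Models also differed behind the stop codon. Of 57 members with models that share a stop, 13 (22.8%, 95% Wilson interval 13.8 to 35.2%) differed by at least 100 nt in the 3' untranslated region, against 19.2% of all such genes. TMEM33 had 1608 nt in 1 model and 256 nt in 2 others with the same stop. TMEM220 had 1366 and 24 nt, TMEM18 1601 and 378 nt, and TMEM19 1050 and 110 nt. The pseudogene TMEM198B had 1254 nt in 2 models, and 1166 and 169 nt in 2 others.

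A coding region was given for 311 of 350 TMEM models (88.9%), against 86.4% of all models. In 5 of the 311 it reached to within 2 nt of an end of the model, so it may be incomplete. TMEM167A, a gene of early secretion, TMEM191A, TMEM191C and TMEM258 had no coding model. In 18 other genes, 31 models had none, and 9 of these did not contain the base at which the longest coding region starts. Regions under 100 codons made up 11 of 311 (3.54%), against 3.53% of all coding models. The shortest was that of TMEM167B, with 28 codons ahead of 2355 nt of 3' untranslated sequence.

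Some TMEM models started close to a gene on the other strand. A model start of such a gene lay within 1000 nt for 28 of 137 members (20.4%, 95% Wilson interval 14.5 to 28.0%), against 17.4% of all genes. The closest were TMEM182 and MFSD9 (47 nt), TMEM234 and the translation factor gene EIF3I (60 nt), TMEM258 and the DNA repair gene FEN1 (75 nt), and TMEM138 and CYB561A3 (89 nt). TMEM147 and its antisense gene TMEM147-AS1 started 102 nt apart. The starts of TMEM91 and the transition zone gene B9D2 lay 187 nt apart with overlapping transcripts. TMEM179B and TMEM223 on chromosome 11 overlapped by 73 nt at their ends. Of all chromosomes, 11 held the most members, 18 of 567 genes (3.17%), against 137 of 9460 genes (1.45%) over the catalogue.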

How the data were processed

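The file used was the authors' deposited set of transcript models, whose values are the first and last position in nt of each transcript, exon and coding region, counted from 1; each line names PacBio as source, per the file. STAR 2.7.8a and Salmon 1.9.0 appear in the submitters' processing notes, with no step attached. How models and coding regions were called and filtered, against which annotation and build, and at what depth: these points were not given in the sources used here. The labels put the 40 libraries in 16 groups, which enter no comparison because the models carry no value per library.

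Introns were taken as gaps between exons, and events were called within each gene, chromosome and strand with Python 3.11.15; the caller was tested on made-up loci. A cassette exon was an internal exon whose flanking splice sites were joined in another model. Exons with different start or end positions counted as separate exons. Counts of models that include a named exon cover all models of its gene. Alternative splice sites belonged to introns with 1 end in common, retained introns were covered by an exon of another model, and outermost exons counted as alternative where no base was shared. Differences in 3' untranslated region used models with at least 3 nt there. Wilson intervals (95%) came from SciPy 1.17.1. RefSeq's tables (GRCh38.p14) gave names, gene types and promoters.

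Members and lists were chosen with earlier results of these data known. Genes were named by rule: the 10 with the most models, every gene with a decay candidate, genes with a coding cassette exon (up to 20), the 5 with the widest range of coding regions and of 3' untranslated regions, the extremes of span, and list members; others were chosen after their values were seen. VMA12 was removed from the list of other Golgi genes because it is TMEM199, and 1 gene of the list of other ciliary genes is not reported here. The planned comparisons with protein sequences were not run.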

Additional observations from a re-analysis of the deposited data

How the results depend on the processing

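No value per library was used, so depth limits each count to what these models hold, and a form in 1 model has no second observation. With each form of an event required in at least 2 models that share its flanking splice sites, 7 of 79 members (8.86%) kept a cassette exon, against 43 of 79 (54.4%); members with 2 or 3 models cannot meet this, which fixes part of the drop. The other 19 alternatives, over 7 results, moved values by less than their interval or, for the mean, less than 1 SD over genes. That SD, 2.27 with a mean of 2.55, is the spread of genes, so the mean could hardly fail this limit. The mean was 2.45 models without TMEM218, 2.34 without models that have no coding region, 2.60 with the identifiers that hold a hyphen or low line, 2.53 in RefSeq protein-coding genes and 2.44 with 50 genes that RefSeq lists under a former TMEM name, an alternative chosen after seeing the data, as was the share of cassette exons inside a coding region without TMEM218 (48.6%, against 45.0%). A decay limit of 55 nt left 6 of 133 genes (4.51%), without TMEM120A and TMEM41B. For 3' untranslated regions, limits of 50 and 200 nt gave 22.8 and 19.3%. Coding cassette exons divisible by 3 made up 41.9% when inside the coding region of each model that holds them. Comparisons with protein lengths and predicted hydrophobic segments were not run. No paired analysis was possible because the models carry no value per library.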
